A study of Triticum aestivum with 34 samples.

Results

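At day 12 after the terminal spikelet stage, gene expression in the basal spikelets of the wheat spike was set against that in the central spikelets, with 3 RNA-seq libraries from each position. The plants were bread wheat (Triticum aestivum) of the genotype shimai22, labelled untreated; no mutant, transgene or treatment separates the groups, and the position along the spike is the only labelled difference. These 6 libraries are part of a series of 34 that covers both positions at days 6, 9, 12, 15, 21 and 27, with 3 libraries in each group except basal day 15 and central day 21, which have 2. The gene models described are those with at least 1 FPKM (a fragment count scaled for transcript length and library size) in at least 2 of the 6 day 12 libraries, which kept 57228 of the 162233 rows of the deposited table, or 35.3%. Of these, 1593 reached 1 FPKM in at least 2 basal and no central libraries, and 1757 in at least 2 central and no basal libraries. For such models the filter itself partly sets the direction of the difference. The labels do not say whether replicates came from separate plants or how many spikes were pooled, so the p-values measure the spread between these libraries, which may be partly technical. The series title places the comparison in the question of how sucrose supply, abscisic acid and jasmonic acid relate to fertility of the basal spikelets.

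The wheat spike forms its spikelets along a central axis, and each spikelet produces several florets, in which glumes, lemma, palea, stamens and pistil are laid down in order. Spikelets at the base of the spike commonly lag behind those in the middle and set fewer grains. Within the stamen the tapetum, the innermost anther wall layer, feeds the developing pollen and makes the precursors of sporopollenin, the polymer of the pollen wall.

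The 6 libraries held between 99070815 and 116393857 estimated counts over all rows, so their depth was similar. On the log-scaled counts the first principal component held 59.3% of the variance and separated the 3 basal libraries, at -75.7 to -95.4, from the 3 central ones, at 81.7 to 87.1. The second component, with 14.4%, spread the basal libraries among themselves and left the central ones close together. Floral MADS-box genes were present in both positions, as the labelled tissue requires, but no marker independent of this comparison defines basal against central position.

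By the quasi-likelihood F test of edgeR, adjusted over all models after Benjamini and Hochberg at 0.05, 18245 of the 57228 models (31.9%) differed between the positions. Of all models, 8623 (15.1%) were called higher in basal spikelets and 9622 (16.8%) lower, and the median log2 difference over all models was 0.01. Without basal replicate 2 the counts were 5129 higher and 7193 lower. The balance moved with the method: 47.3% of the calls were higher in this test, against 42.3% with DESeq2's size factors in edgeR and 57.4% in limma on log2(FPKM + 1), which changes the test, the values and the scale together. Large changes were unevenly split, with 1350 models (2.36%) called and more than 2-fold higher against 2434 (4.25%) called and more than 2-fold lower in basal spikelets. The FPKM values of the 3 basal and 3 central libraries did not overlap for 25908 models (45.3%). Throughout, values are given as basal against central, means with ± SD of 3 libraries, log2 differences are basal minus central with ± SE, and "higher" or "lower" without further words means called in that test. Where a group below is said to have no member in a direction, no member in that direction had an unadjusted edgeR p under 0.05 and DESeq2 called none, except for 2 SPL models (lower by unadjusted p and in DESeq2), 2 starch synthesis models and 1 starch breakdown model (higher by unadjusted p, none in DESeq2).

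**Figure D1:**
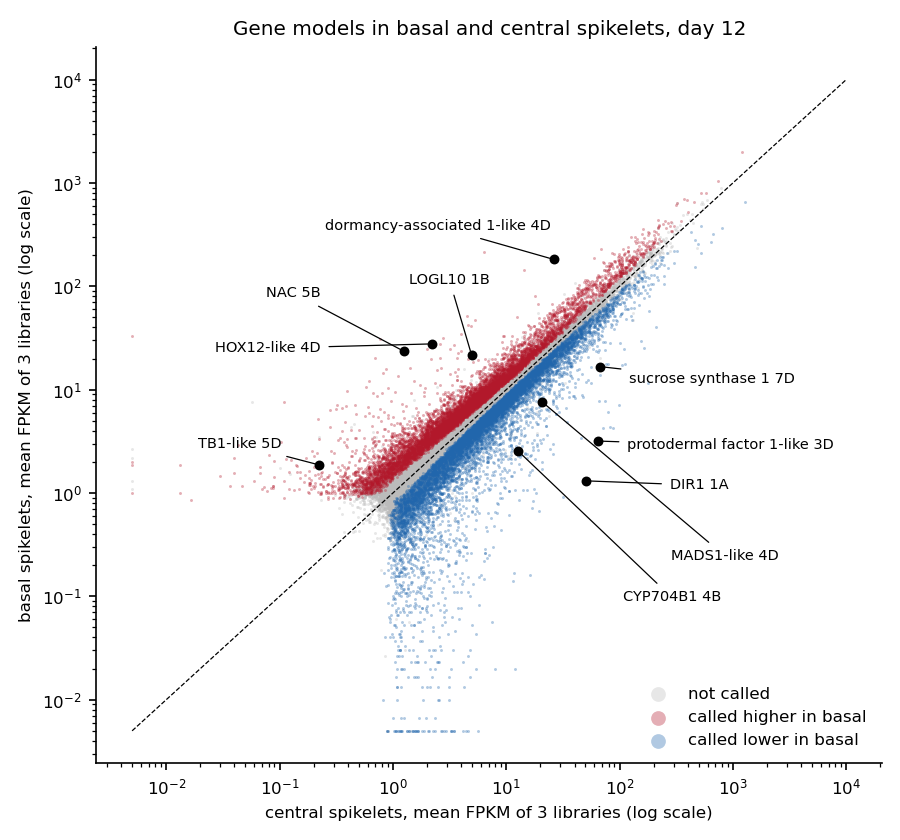
Mean FPKM of each of the 57228 gene models in central (x axis) and basal spikelets (y axis) at day 12, both on log scales, with means below 0.005 drawn at 0.005, models called higher in basal in red, lower in blue and not called in grey. The cloud of called models reaches farther below the dashed line of equality, where 2434 models were more than 2-fold lower, than above it, where 1350 were more than 2-fold higher.

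Basal replicates 2 and 1 stood apart from the rest. Basal replicate 2 had 60 models at least 4-fold above each of the other 5 libraries, of which 54 were called, while every other library had 1 or 0 such models. The 12 tested models with the descriptions MTR_0021s0160 or MA16_Dca002210 had a summed FPKM of 805 in basal replicate 2, 31.4 and 39.5 in the other basal libraries and 8.96 to 20.2 in the central ones. The mitochondrial ribosomal protein S12 model TraesCS1D03G0345300 behaved in the same way, with 1.75, 13 and 2.95 FPKM in the basal libraries against 0.31, 0.47 and 1.05 in the central libraries. It lost its call without that library, at log2 1.83 (edgeR adjusted p = 0.094), and every other called model named below kept its sign when that library was left out. Basal replicate 1 lay at the other end of the second component, at 79.1 against -64.3 for basal replicate 2, and had the largest median absolute deviation from the middle library of its position, 0.089 against 0.056 on the log2(FPKM + 1) scale. Without it the calls rose to 19482, 9027 higher and 10455 lower.

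Regulators that were higher in basal spikelets included homeodomain-leucine zipper (HD-ZIP) genes of class I, the family that in barley contains VRS1, a repressor of lateral spikelet development. All 6 expressed models described as HOX12 or HOX14 were higher in basal spikelets, with log2 differences around a median of 2.44. The family was chosen with earlier results of these data known. The 4A copy of HOX12 (TraesCS4A03G0078800, chromosome 4A, 34014609 to 34016092, minus strand) stood at 28, 25.9 and 29.4 FPKM in the basal libraries against 2.86, 2.75 and 2.12 in the central libraries (log2 3.37 ± 0.20, edgeR adjusted p = 1.9e-12). Its 4B copy (TraesCS4B03G0697100) had 32.7, 35.9 and 35.5 FPKM in the basal libraries against 3.86, 4.76 and 3.43 in the central libraries (log2 3.06 ± 0.25, edgeR adjusted p = 1.0e-09). On 4D, TraesCS4D03G0623900 (chromosome 4D, 432565292 to 432566775, minus strand) gave 26.9, 26.1 and 30.1 against 1.92, 2.36 and 2.31 FPKM (log2 3.61 ± 0.22, edgeR adjusted p = 3.4e-12). In each of the 3 copies the lowest basal library was several times the highest central one. HOX14 showed the same order at lower levels. Its 2A copy (TraesCS2A03G0392300, chromosome 2A, 158059404 to 158060563, plus strand) had 12, 13.4 and 11.1 against 3.94, 4.0 and 4.12 FPKM (log2 1.55 ± 0.27, edgeR adjusted p = 9.7e-05). The 2D copy TraesCS2D03G0416300 had 6.07 ± 0.642 against 1.68 ± 0.343 FPKM (log2 1.81 ± 0.38, edgeR adjusted p = 7.3e-04). The 2B copy TraesCS2B03G0528200 had 3.69 ± 0.643 against 1.36 ± 0.347 FPKM (log2 1.4 ± 0.28, edgeR adjusted p = 5.6e-04). The groups did not overlap for any of the 3 HOX14 copies. Bread wheat carries near-identical copies of most genes on its A, B and D subgenomes, and reads shared between such copies may be split among them, so values of single copies are less certain than the order of the whole family.

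A model described as TEOSINTE BRANCHED 1-like (TraesCS5D03G0003700, chromosome 5D, 2517220 to 2518242, minus strand), after the maize gene that holds back the outgrowth of side branches, was detected at low level and was higher in basal spikelets, with 1.68, 1.98 and 1.96 against 0.36, 0.13 and 0.18 FPKM (log2 2.98 ± 0.40, edgeR adjusted p = 3.1e-06). The 3 models below of the NAC family of plant transcription factors on chromosome group 5 showed some of the largest differences. TraesCS5B03G0394500 (chromosome 5B, 270859279 to 270861041, minus strand) had 19, 25.7 and 25.7 against 1.38, 1.28 and 1.1 FPKM (log2 4.18 ± 0.32, edgeR adjusted p = 3.1e-10). Its counterparts TraesCS5A03G0397800, at 24.8 ± 4.04 against 2.0 ± 0.322 FPKM (log2 3.58 ± 0.24, edgeR adjusted p = 3.0e-11), and TraesCS5D03G0370800, described as NAC29-like, at 31.4 ± 5.73 against 2.79 ± 0.199 FPKM (log2 3.44 ± 0.26, edgeR adjusted p = 2.1e-10), did the same. Other NAC models of like description on group 5 did not pass, such as a 5A model at 46.9 ± 6.54 against 44.4 ± 4.03 FPKM (edgeR adjusted p = 0.89). The basic helix-loop-helix gene bHLH51 (TraesCS3D03G0216800) was at 6.09 ± 0.282 against 0.827 ± 0.19 FPKM (log2 2.82 ± 0.23, edgeR adjusted p = 7.3e-10). A low-confidence model described as an AT hook protein (TraesCS2B03G1204800LC) had 5.21 ± 1.21 against 0.22 ± 0.236 FPKM (log2 4.4 ± 0.37, edgeR adjusted p = 3.0e-10). Its relative of that description on 2D, TraesCS2D03G0433700, was at 1.43 ± 0.364 against 1.34 ± 0.12 FPKM and did not pass the test.

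Dormancy-associated protein 1 (DRM1) genes, whose transcripts accumulate in resting axillary buds of pea and Arabidopsis, were among the most abundant transcripts that were higher in basal spikelets. The 4D copy (TraesCS4D03G0130800, chromosome 4D, 45097463 to 45100876, minus strand) measured 159, 214 and 172 against 26.1, 26.6 and 25.8 FPKM (log2 2.75 ± 0.16, edgeR adjusted p = 3.1e-12). The 4A copy (TraesCS4A03G0646200) stood at 230 ± 33.3 against 68.6 ± 4.97 FPKM (log2 1.7 ± 0.13, edgeR adjusted p = 2.6e-10). The 4B copy (TraesCS4B03G0155100) was at 188 ± 26.2 against 59.8 ± 3.64 FPKM (log2 1.61 ± 0.16, edgeR adjusted p = 2.9e-08). In each copy all basal libraries were above all central libraries, and the 4D copy, which differed most, had the lowest central level. All 5 models described as dormancy-associated protein homolog 3-like were higher as well, led by TraesCS5B03G0560700 at 32.9 ± 5.6 against 9.45 ± 0.532 FPKM (log2 1.75 ± 0.14, edgeR adjusted p = 3.1e-10). The others were TraesCS4D03G0419500 (log2 1.3), TraesCS5A03G0552400 (1.1), TraesCS4A03G0363700 (0.98) and TraesCS4B03G0403600 (0.91). Low-confidence models described as dormancy-associated protein 2-like went the other way. TraesCS7A03G0522100LC was at 0.04 against 1.5 FPKM, TraesCS7D03G0503600LC at 0.0667 against 2.17 FPKM, and TraesCS7B03G0340100LC was listed at 0 in all 3 basal libraries and at 2.71 FPKM in central spikelets. In the wider list of genes known from sugar starvation and senescence, 20 of 57 were higher and 10 lower, with a median log2 difference of 0.10. Another member named by size of change was asparagine synthetase 1 (TraesCS4D03G0481800), an enzyme that stores nitrogen in asparagine and is induced in Arabidopsis by darkness and sugar shortage, with 10.2, 16.4 and 16.3 against 2.65, 3.04 and 3.96 FPKM (log2 2.11 ± 0.35, edgeR adjusted p = 5.0e-05). Its homoeologous copies did not pass the test: TraesCS4A03G0227300 was at 15.5 ± 4.22 against 11.3 ± 2.52 FPKM (log2 0.41 ± 0.31, edgeR adjusted p = 0.33) and TraesCS4B03G0544200 at 6.15 ± 1.82 against 6.38 ± 1.84 FPKM (log2 -0.09 ± 0.35, edgeR adjusted p = 0.86).

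**Figure D2:**
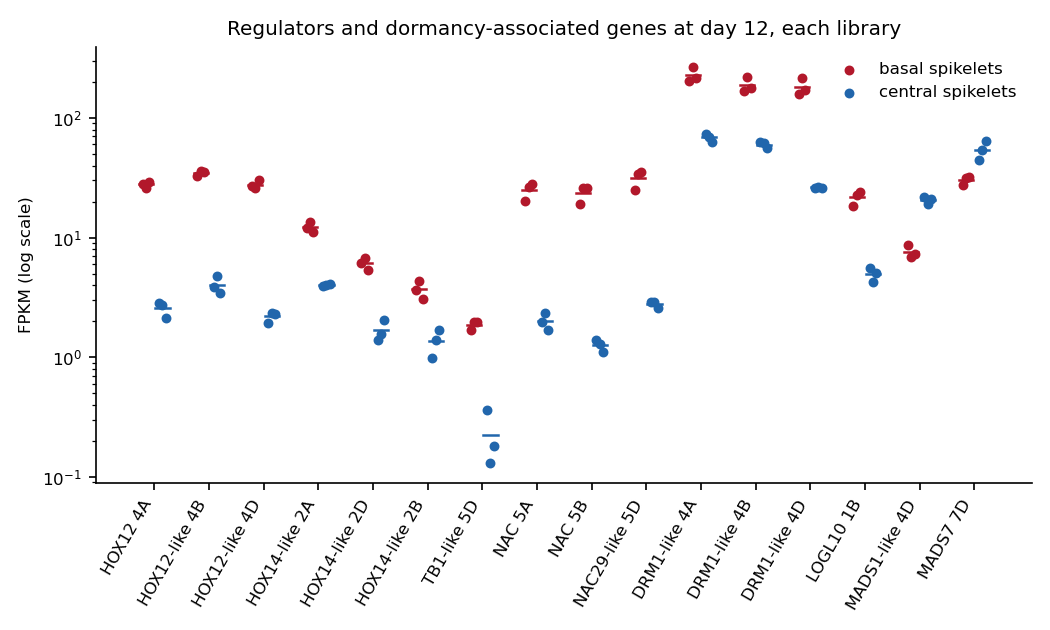
FPKM on a log scale in each of the 3 basal (red) and 3 central (blue) libraries at day 12 for regulators and dormancy-associated genes, with the mean as a bar. Basal values lie above central ones for HOX12, HOX14, TB1, NAC, DRM1 and LOGL10 models, and below them for the MADS1-like 4D and MADS7 7D models.

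Transcription factors of the SPL family, which promote phase change and shape the inflorescence, leaned to one side. Of 38 expressed SPL models 22 were higher in basal spikelets and 0 lower, with a median of 0.49 on the log2 scale. TraesCS3D03G0935000, described as SPL2, had 10.7, 13.8 and 11.8 against 7.72, 6.58 and 6.08 FPKM (log2 0.79 ± 0.13, edgeR adjusted p = 5.5e-05). Models described as SPL10, a group picked out after its values were seen, were higher in 8 of 9 cases, at log2 differences of 0.56 to 1.17. The TCP family, named after TB1 and cell-division regulators, leaned the same way: 19 of 31 were higher and 0 lower, at a median of 0.52. Leaving out basal replicate 2 lowered these counts to 13 SPL, 10 TCP and 3 SPL10 models, with none lower in SPL or TCP. TCP21-like (TraesCS6B03G1277800) reached 14.2 ± 0.279 against 7.33 ± 0.698 FPKM (log2 0.91 ± 0.10, edgeR adjusted p = 8.8e-08) and TCP7-like (TraesCS6D03G0533600) 5.75 ± 0.968 against 2.1 ± 0.221 FPKM (log2 1.41 ± 0.23, edgeR adjusted p = 4.5e-05). Over all models 15.1% were higher and 16.8% lower, and members of both families include homoeologous copies, which are not independent.

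Genes of the MADS-box family, which include floral organ identity genes among others, leaned toward lower levels in basal spikelets. Of 72 models 26 were lower and 11 higher, with a median of -0.33. The count of lower models was 16 without basal replicate 1, 17 without basal replicate 2 and 17 without central replicate 3. MADS1, MADS7 and MADS8 are SEPALLATA-class genes, which in rice specify the floral meristem and the inner floral organs; 9 of their 12 models were lower and none was higher. The MADS1-like model on 4D (TraesCS4D03G0590000, chromosome 4D, 410304894 to 410315508, plus strand) had 8.68, 6.85 and 7.33 against 22, 19.1 and 21 FPKM (log2 -1.49 ± 0.16, edgeR adjusted p = 6.0e-08). Its 4A relative (TraesCS4A03G0160400) had 18.5 ± 1.19 against 36.2 ± 1.75 FPKM (log2 -1.02 ± 0.14, edgeR adjusted p = 6.9e-06). MADS7 on 7D (TraesCS7D03G0590500) stood at 27.6, 31.5 and 32.2 against 44.5, 54.2 and 63.8 FPKM (log2 -0.88 ± 0.13, edgeR adjusted p = 1.1e-05). Its 7A copy (TraesCS7A03G0603000) was at 41.6 ± 0.757 against 69 ± 2.97 FPKM (log2 -0.78 ± 0.12, edgeR adjusted p = 2.5e-05). The 11 higher members included the following models, chosen after their values were seen. AP1 on 5D (TraesCS5D03G0894800) was at 38.5 ± 1.5 against 28.2 ± 1.58 FPKM (log2 0.40 ± 0.12, edgeR adjusted p = 0.012). TaVRT-1 on 5B (TraesCS5B03G0986000) was at 60.7 ± 1.98 against 45.3 ± 1.27 FPKM (log2 0.37 ± 0.11, edgeR adjusted p = 0.014). Both are meristem identity genes of the VRN1 group. MADS56 (TraesCS1A03G0533300), a relative of the flowering-time gene SOC1, was at 10.3 ± 0.763 against 4.81 ± 0.477 FPKM (log2 1.05 ± 0.14, edgeR adjusted p = 2.6e-06). Its 1B copy (TraesCS1B03G0624000) was at 3.27 ± 0.49 against 0.97 ± 0.118 FPKM (log2 1.7 ± 0.24, edgeR adjusted p = 5.7e-06). AGL6-D on 6A (TraesCS6A03G0697000) was lower, with 26.6 ± 4.51 against 38.7 ± 4.65 FPKM (log2 -0.59 ± 0.17, edgeR adjusted p = 0.0096), but not without basal replicate 1 (edgeR adjusted p = 0.051) or central replicate 1 (0.063).

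In the list of meristem homeobox genes and growth-regulating factors, 5 of 49 were higher and 13 lower. The members that were lower were mainly BEL1-like homeodomain genes, whose proteins pair with KNOX proteins in meristems: 12 of 21 were lower and 1 was higher. BEL1-like homeodomain 7 (TraesCS4A03G0739000) had 3.84, 3.21 and 3.12 against 6.18, 6.1 and 6.25 FPKM (log2 -0.91 ± 0.09, edgeR adjusted p = 9.5e-09). The KNOX gene knotted-1-like 3 on 4D (TraesCS4D03G0792700) was at 1.09 ± 0.0808 against 5.31 ± 0.389 FPKM (log2 -2.34 ± 0.24, edgeR adjusted p = 2.0e-08). Growth-regulating factors, which sustain cell proliferation in young organs, were higher in 4 of 9 cases and lower in none, with the growth-regulating factor 6-like model TraesCS4D03G0110500 at 4.26 ± 0.29 against 2.38 ± 0.145 FPKM (log2 0.79 ± 0.17, edgeR adjusted p = 0.0012).

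**Figure D3:**
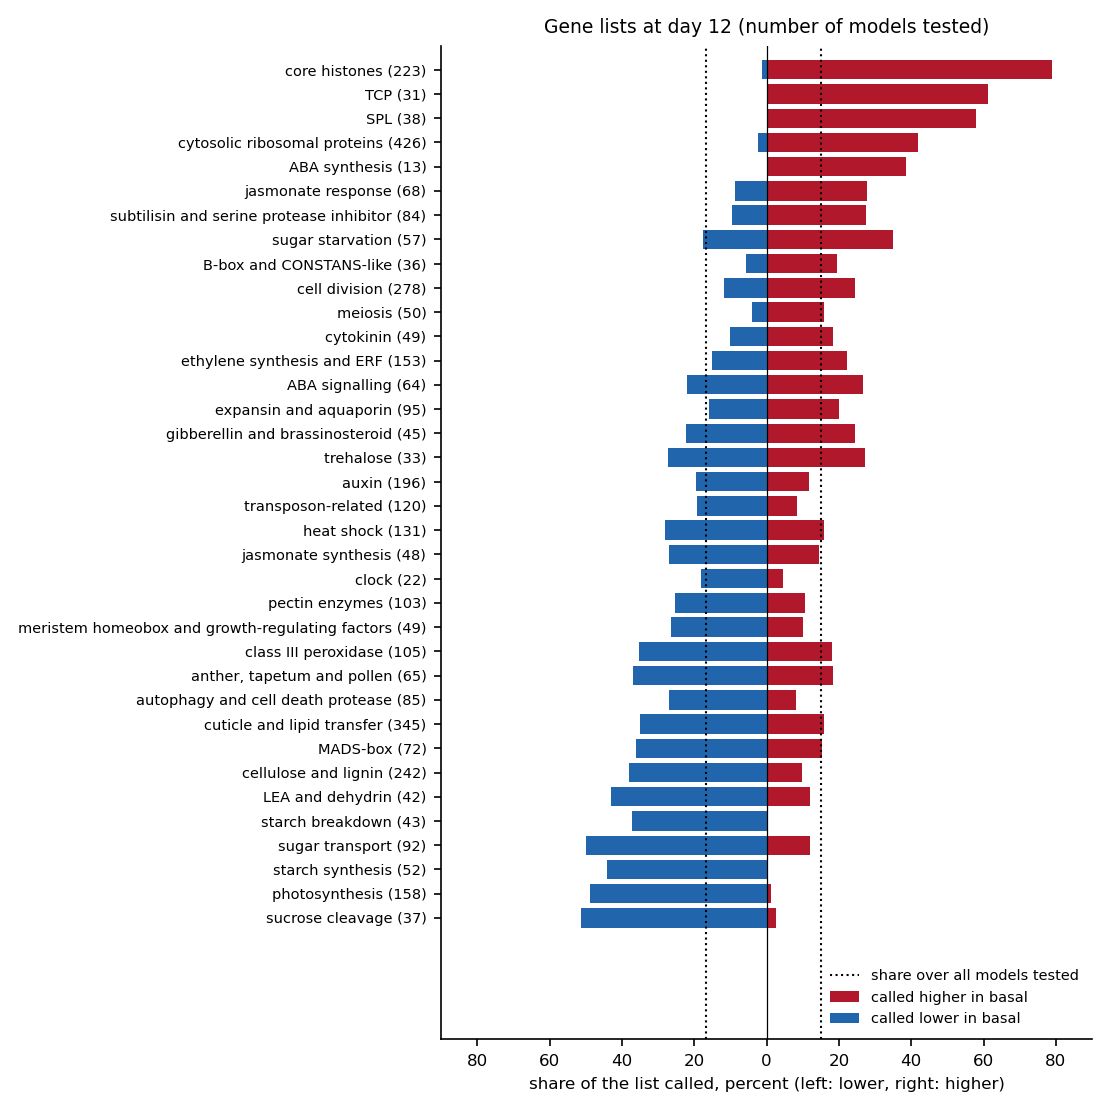
Share of each gene list with at least 10 tested models that was called higher (red, right) or lower (blue, left) in basal spikelets at day 12, in percent, with the number tested in brackets. Dotted lines mark the shares over all models, 15.1% higher and 16.8% lower; core histones, TCP and SPL genes extend farthest to the right, and sucrose cleavage, sugar transport and photosynthesis farthest to the left.

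The named enzymes of sporopollenin synthesis were lower in basal spikelets, in families chosen with earlier results of these data known. CYP704B1, a cytochrome P450 that hydroxylates fatty acids for sporopollenin, had 3 expressed copies. On 4B (TraesCS4B03G0752700, chromosome 4B, 567536269 to 567538696, minus strand) it stood at 1.51, 3.07 and 3.01 against 13.7, 11.8 and 12.8 FPKM (log2 -2.38 ± 0.21, edgeR adjusted p = 2.6e-09). The 4A copy TraesCS4A03G0032700 had 2.24 ± 0.848 against 13.1 ± 1.07 FPKM (log2 -2.59 ± 0.27, edgeR adjusted p = 7.0e-09). The 4D copy TraesCS4D03G0673200 had 2.31 ± 0.74 against 13.4 ± 1.63 FPKM (log2 -2.58 ± 0.26, edgeR adjusted p = 2.5e-08). Fatty acyl-CoA reductase 2-like genes, relatives of Arabidopsis MS2 in the same pathway, differed more. The 4D copy (TraesCS4D03G0668100, chromosome 4D, 453433695 to 453436942, plus strand) had 0.59, 2.74 and 2.67 against 24.4, 17.9 and 19.2 FPKM (log2 -3.4 ± 0.36, edgeR adjusted p = 7.9e-08). The 4A copy (TraesCS4A03G0036600) was at 1.58 ± 0.655 against 16.3 ± 1.68 FPKM (log2 -3.41 ± 0.29, edgeR adjusted p = 9.3e-10). The 4B copy (TraesCS4B03G0748600) was at 0.793 ± 0.228 against 8.27 ± 1.49 FPKM (log2 -3.43 ± 0.31, edgeR adjusted p = 9.0e-10). In all 6 of these models basal replicate 1 was the lowest of the 6 libraries, and no basal library reached a central one.

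The next steps of sporopollenin synthesis followed the same order. Type III polyketide synthase A-like on 1D (TraesCS1D03G0407100) had 4.01, 6.19 and 7.15 against 29, 24 and 28.6 FPKM (log2 -2.28 ± 0.35, edgeR adjusted p = 1.7e-05). All 4 models of tetraketide alpha-pyrone reductase, which reduces the polyketide product, were lower, with means of 2.68 to 5.01 FPKM in basal and 12.7 to 16.1 FPKM in central spikelets. RAFTIN, a wheat tapetum protein that is carried to the pollen surface, was lower in its 3 copies. TraesCS7A03G0550600 had 13.6 ± 3.92 against 37 ± 1.92 FPKM (log2 -1.49 ± 0.29, edgeR adjusted p = 3.9e-04), TraesCS7B03G0368300 2.14 ± 0.618 against 9.41 ± 0.419 FPKM (log2 -2.18 ± 0.35, edgeR adjusted p = 4.3e-05) and TraesCS7D03G0529100 7.32 ± 2.82 against 19.4 ± 1.06 FPKM (log2 -1.45 ± 0.31, edgeR adjusted p = 9.8e-04). Regulators of the tapetum divided. EAT1-like genes, which in rice act in the tapetum before its death, were lower in 4 of 5 cases, at basal means of 0.55 to 0.86 FPKM and central means of 1.03 to 2.16 FPKM. The basal means lay below the 1 FPKM of the filter and the central means above it, so the filter partly set the direction of the EAT1-like models. None of the 6 TDR-like models, a regulator that acts earlier in the rice tapetum, passed the test, and their log2 differences lay between -0.43 and 0.11.

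Over the whole list of anther, tapetum and pollen genes, 24 of 65 were lower and 12 higher, with a median of -0.17. The summed FPKM of the list was 262, 331 and 350 in the basal libraries and 409, 411 and 419 in the central ones. Members that were higher in basal spikelets included all 3 POLLENLESS 3-LIKE models, whose Arabidopsis relative acts at the end of male meiosis, among them TraesCS5A03G0798600 at 3.53 ± 0.174 against 1.74 ± 0.171 FPKM (log2 0.97 ± 0.15, edgeR adjusted p = 1.5e-05). INAPERTURATE POLLEN1-like genes, whose Arabidopsis relative is needed for the apertures of the pollen wall, also ran against the sporopollenin enzymes: 2 of 3 models were higher and none was lower, at a median of 0.92, with 1 higher without basal replicate 2 or central replicate 1. In whole spikelets, fewer cells of a type and less RNA per cell cannot be told apart, here and for every list that follows. The part of anther or tapetum content in the differences at day 12 was not tested.

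Meiosis genes leaned weakly toward basal spikelets, with 8 of 50 higher, 2 lower and a median of 0.17. PAIR1-like (TraesCS2A03G0780300), needed for meiotic recombination in rice, was at 1.93 ± 0.0153 against 0.84 ± 0.241 FPKM (log2 1.15 ± 0.28, edgeR adjusted p = 0.0025). The list member MSH4 (TraesCS2D03G0373900LC) was at 1.05 ± 0.477 against 1.78 ± 0.38 FPKM (log2 -0.81 ± 0.22, edgeR adjusted p = 0.0078). MSH4 was not called without basal replicate 2 (log2 -0.56). The count of higher models fell to 5 and 2 without basal replicates 2 and 3, and to 4 and 3 without central replicates 1 and 2. Without basal replicate 3 as many meiosis models were lower (2) as higher. The recombinase DMC1 (TraesCS5D03G0353500) was at 5.16 ± 0.386 against 4.43 ± 0.0709 FPKM (log2 0.17 ± 0.16, edgeR adjusted p = 0.43) and did not pass the test. The 16% of the list called higher is close to the 15.1% over all models.

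The gap in the pollen wall genes was present on the neighbouring days as well. CYP704B1 on 4B averaged 0.443, 2.53 and 13.1 FPKM in basal and 6.85, 12.8 and 24.2 in central spikelets at days 9, 12 and 15. Fatty acyl-CoA reductase 2-like on 4D averaged 0.193, 2.0 and 14.5 FPKM in basal and 5.44, 20.5 and 35 in central spikelets on the same days. For CYP704B1 the basal mean at day 15 was near the central mean at day 12, for the reductase it was below it, and for both genes the central mean was the higher on all 3 days.

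**Figure D4:**
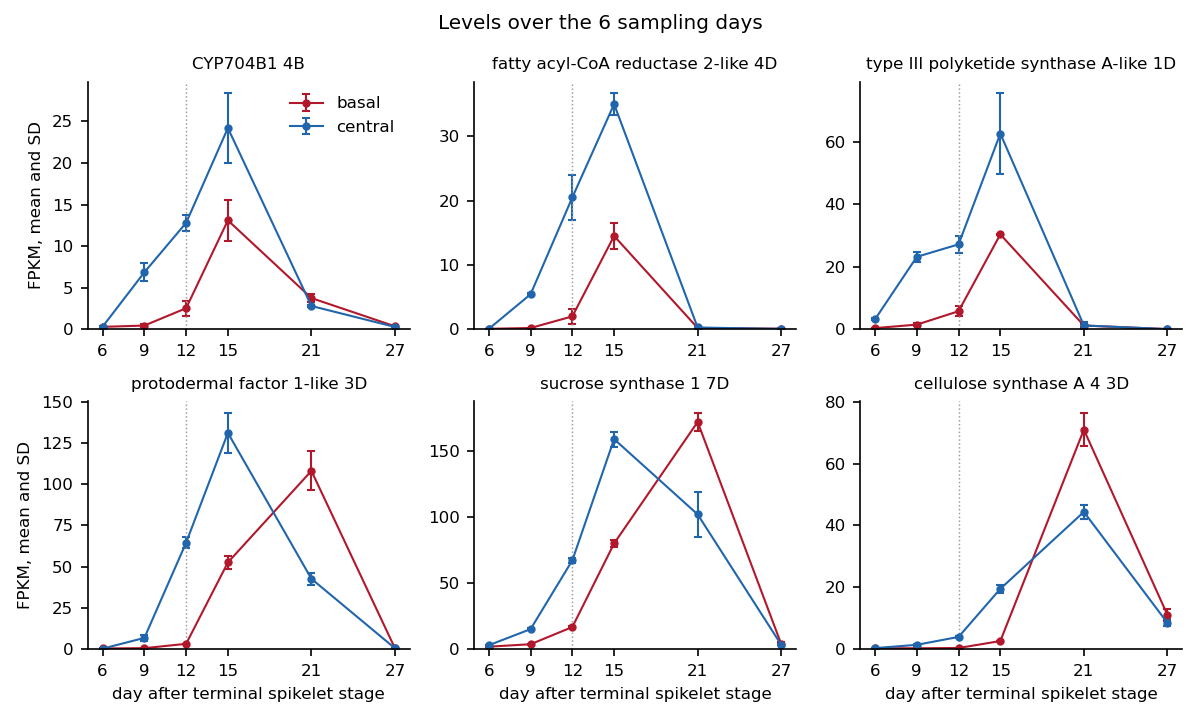
Mean FPKM ± SD over the 6 sampling days in basal (red) and central (blue) spikelets for 6 models, with day 12 marked by a dotted line; each group has 3 libraries, or 2 for basal day 15 and central day 21. At day 12 the basal level is below the central level in each panel, as for CYP704B1 4B at 2.53 against 12.8 FPKM.

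Surface and epidermal genes differed among themselves in direction. Protodermal factor 1 is a proline-rich protein of the outermost cell layer of Arabidopsis shoots. Its 3D relative (TraesCS3D03G0232900, chromosome 3D, 66453806 to 66455372, plus strand) had 3.06, 3.14 and 3.33 against 68, 64.1 and 61.4 FPKM (log2 -4.39 ± 0.19, edgeR adjusted p = 6.7e-15). The 3A relative (TraesCS3A03G0240500) had 10.5, 10.4 and 13.8 against 194, 173 and 169 FPKM (log2 -4.0 ± 0.26, edgeR adjusted p = 1.1e-11). The spread within each position was small beside the gap between positions. Of all 6 models with that description 5 were lower; the exception, TraesCS3D03G0295100, was at 125 ± 16.4 against 91.3 ± 2.49 FPKM and did not pass the test. Homeobox genes of the ROC group, which mark the epidermis in rice, did not share this direction. In this group 7 of 21 models were higher and none was lower, with 3 higher and 1 lower without basal replicate 2, and 4 higher without basal replicate 3 or central replicates 2 or 3.

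Lipid-transfer and cuticle genes were lower more often than higher, at 121 against 55 of 345. The higher count was 29 without basal replicate 2 and 36 without central replicate 3. The lipid-transfer protein DIR1 model on 1A (TraesCS1A03G0439600, chromosome 1A, 293855087 to 293856007, plus strand), named after an Arabidopsis protein of systemic resistance, had 0.24, 2.19 and 1.5 against 56.8, 36.7 and 59.3 FPKM (log2 -5.32 ± 0.43, edgeR adjusted p = 3.6e-11). Non-specific lipid-transfer protein C6-like (TraesCS6D03G0187100) was at 0.17 ± 0.214 against 11.6 ± 3.73 FPKM, and GDSL esterase/lipase EXL1-like (TraesCS7B03G0691400) at 0.23 ± 0.0436 against 2.71 ± 0.18 FPKM (log2 -3.59 ± 0.24, edgeR adjusted p = 2.4e-12). HOTHEAD genes, whose Arabidopsis member makes oxidized fatty acids of the cuticle, were at 0.233 ± 0.265 against 6.78 ± 1.21 FPKM on 6A (TraesCS6A03G0693700, log2 -4.88 ± 0.60, edgeR adjusted p = 1.5e-06) and at 0.25 ± 0.0872 against 7.07 ± 1.58 FPKM on 2D (TraesCS2D03G0901700, log2 -4.85 ± 0.29, edgeR adjusted p = 4.3e-13). All 21 models described as GDSL esterase/lipase At3g09930-like were lower, a group singled out after its values were seen. Their basal means reached at most 0.0433 FPKM and their central means lay between 0.81 and 5.44 FPKM, with TraesCS7A03G1306500 at 0, 0 and 0.06 against 7.55, 4.0 and 4.77 FPKM. These near-identical models may share reads, so the count is not one of independent genes. They met the filter of 1 FPKM through the central libraries alone, so the filter largely set their shared direction. Not all surface genes were lower: a type 1 lipid-transfer protein on 3B (TraesCS3B03G0945600) was abundant and higher, at 303 ± 39.4 against 138 ± 11.7 FPKM (log2 1.08 ± 0.14, edgeR adjusted p = 2.6e-06).

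Further models at very low level in basal spikelets were named by size of change. The BURP domain protein 4-like model (TraesCS2D03G0947600) had 1.0, 7.29 and 4.37 against 97.5, 67.9 and 95.8 FPKM (log2 -4.4 ± 0.66, edgeR adjusted p = 3.0e-05). The subtilisin-like protease SBT2.5 (TraesCS2A03G0941400) had 0.53, 1.63 and 1.06 against 16.1, 13.6 and 16.2 FPKM (log2 -3.87 ± 0.27, edgeR adjusted p = 5.6e-11). In both, basal replicate 1 was the lowest and basal replicate 2 the highest of the basal libraries, yet neither approached the central range. Protease inhibitor-like (TraesCS2A03G0987800) was at 0.16 against 16.3 FPKM, SPIRAL1-like 4 (TraesCS2A03G0954400), of a family of microtubule proteins, at 0.0833 against 5.69 FPKM, aquaporin NIP4-1-like (TraesCS3A03G0019300) at 0.147 against 6.32 FPKM and cytochrome P450 87A3-like (TraesCS2D03G0904400) at 0.0567 against 7.49 FPKM. Alpha carbonic anhydrase 7-like (TraesCS7A03G0927200) was at 0.723 ± 0.918 against 16.9 ± 3.93 FPKM (log2 -4.56 ± 0.50, edgeR adjusted p = 3.1e-07). Its 7-like and 5-like relatives on chromosome group 7 divided. A 7D model was higher, at 4.0 ± 0.46 against 0.907 ± 0.302 FPKM (log2 2.08 ± 0.26, edgeR adjusted p = 1.1e-06). Others were lower, at log2 -4.06 and -1.16 on 7D and -4.82 on 7B, and further models on 7A, 7B and 7D did not pass. Bifunctional epoxide hydrolase 2-like (TraesCS1A03G0460700) was at 0.443 ± 0.415 against 8.95 ± 0.868 FPKM (log2 -4.37 ± 0.46, edgeR adjusted p = 2.0e-08). Cytochrome P450 71C2 (TraesCS2B03G0121700) stood at 0.133 ± 0.0306 against 5.12 ± 0.964 FPKM (log2 -5.31 ± 0.26, edgeR adjusted p = 1.2e-13). A model named after rice blast resistance gene Pi21 (TraesCS2D03G0666600LC) was at 0.153 ± 0.0153 against 5.73 ± 0.717 FPKM (log2 -5.26 ± 0.31, edgeR adjusted p = 2.7e-12). Cold shock protein CS66-like (TraesCS3D03G0862400), of the dehydrin group, was at 0.16 ± 0.11 against 6.04 ± 1.82 FPKM (log2 -5.27 ± 0.43, edgeR adjusted p = 1.1e-10).

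Cell wall genes were lower too, above all those of the secondary wall, the thick lignified layer of xylem and fibre cells. In the cellulose and lignin list 92 of 242 were lower and 24 higher, or 11 higher without basal replicate 2. Cellulose synthase A 4 and 7 build secondary wall cellulose. All 6 models described as cellulose synthase A 4, 7 or 8 were lower, but unequally, with log2 differences from -3.92 to -0.83 and basal means from 0.297 to 33.4 FPKM. CesA4 on 3D (TraesCS3D03G0666000, chromosome 3D, 400880831 to 400886850, plus strand) had 0.33, 0.39 and 0.34 against 3.7, 4.45 and 3.66 FPKM (log2 -3.52 ± 0.18, edgeR adjusted p = 3.0e-13). CesA7 was at 0.297 ± 0.0862 against 4.41 ± 0.323 FPKM on 1B (TraesCS1B03G0493300, log2 -3.92 ± 0.21, edgeR adjusted p = 4.3e-13), at 0.37 ± 0.08 against 4.42 ± 0.46 FPKM on 1D (TraesCS1D03G0371000, log2 -3.61 ± 0.23, edgeR adjusted p = 1.2e-11) and at 0.36 ± 0.0721 against 3.79 ± 0.178 FPKM on 1A (TraesCS1A03G0402200, log2 -3.45 ± 0.22, edgeR adjusted p = 1.3e-11). The 4 models differed by about the same amount, with basal levels under 1 FPKM in every library. They met the filter through the central libraries alone. Laccases polymerize lignin, and 8 of 10 were lower, including laccase-13-like on 1D (TraesCS1D03G0679300) at 0.11 ± 0.0436 against 3.43 ± 0.805 FPKM (log2 -5.02 ± 0.32, edgeR adjusted p = 9.7e-13). That model met the filter through the central libraries alone. The laccase median was -4.13, with central means of at most 10.2 FPKM, so the filter partly set the laccase count too. Phenylalanine ammonia-lyase, the entry enzyme of the phenylpropanoid pathway, was lower in 9 of 20 models and higher in none, as for TraesCS6A03G0614100 at 5.03 ± 1.13 against 21.4 ± 1.74 FPKM (log2 -2.14 ± 0.15, edgeR adjusted p = 7.8e-11). Cellulose synthase-like E6 on 5D (TraesCS5D03G0600000) was an exception, at 3.46 ± 0.338 against 0.683 ± 0.199 FPKM (log2 2.29 ± 0.21, edgeR adjusted p = 4.7e-09). Pectin enzymes showed 26 lower and 11 higher of 103 (7 higher without basal replicate 2 or central replicate 3), with pectin acetylesterase 5-like (TraesCS3A03G1264200) at 1.08 ± 0.208 against 6.37 ± 0.285 FPKM (log2 -2.61 ± 0.21, edgeR adjusted p = 5.9e-10). Polygalacturonase At1g80170 (TraesCS1D03G0864600) was at 7.0 ± 0.549 against 3.48 ± 0.263 FPKM (log2 0.96 ± 0.19, edgeR adjusted p = 4.4e-04).

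Sucrose arrives in young florets through the phloem and is cleaved by sucrose synthase or invertase before use. In the sucrose cleavage list 19 of 37 models were lower in basal spikelets and 1 was higher, at a median of -0.35. Sucrose synthase 1 on 7D (TraesCS7D03G0082900, chromosome 7D, 19563079 to 19568787, plus strand) had 17.3, 16.3 and 16.5 against 67.9, 68.8 and 65.1 FPKM (log2 -2.06 ± 0.14, edgeR adjusted p = 2.4e-11). Its 7A counterpart (TraesCS7A03G0091500) had 0.56, 0.76 and 0.62 against 6.64, 7.83 and 6.26 FPKM (log2 -3.46 ± 0.23, edgeR adjusted p = 1.4e-11). For both models the 3 basal values lay close together and well below every central value. Of all 9 sucrose synthase models 7 were lower. TraesCS4A03G1116300 was at 12.2 ± 0.335 against 26.8 ± 5.71 FPKM (log2 -1.18 ± 0.15, edgeR adjusted p = 1.5e-06), TraesCS7A03G0375000 at log2 -0.96, TraesCS4A03G0309800 at -0.84, TraesCS7D03G0358200 at -0.83 and TraesCS7B03G0171900 at -0.56. The remaining 2 did not pass, namely sucrose synthase 4 (TraesCS4D03G0421500) at 1.18 against 1.34 FPKM and sucrose synthase 7-like (TraesCS7D03G1287800) at 1.22 against 1.07 FPKM. The member of the list that was higher was alkaline/neutral invertase F (TraesCS6B03G0274800), at 6.2 ± 1.25 against 3.59 ± 0.731 FPKM (log2 0.74 ± 0.23, edgeR adjusted p = 0.016); it was no longer called without basal replicate 2 or 3 or central replicate 1 or 3.

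Sugar transporters were lower in 46 of 92 cases and higher in 11 (7 without central replicate 3), at a median of -0.45. SUT1, the sucrose carrier that loads sucrose across the plasma membrane, was lower in its 3 copies. The 4D copy (TraesCS4D03G0679400) had 0.57, 0.74 and 0.85 against 2.66, 2.29 and 2.74 FPKM (log2 -1.88 ± 0.28, edgeR adjusted p = 1.3e-05). It met the filter of 1 FPKM through the central libraries alone, so the filter partly set its direction. The 4B copy (TraesCS4B03G0758500) was at 0.973 ± 0.169 against 2.73 ± 0.433 FPKM (log2 -1.53 ± 0.25, edgeR adjusted p = 5.4e-05). The 4A copy (TraesCS4A03G0027400) was at 1.29 ± 0.24 against 2.83 ± 0.363 FPKM (log2 -1.18 ± 0.20, edgeR adjusted p = 5.7e-05). Sucrose transporter 2A differed less, at log2 -0.56 on 5B (TraesCS5B03G0000300) and -0.26 on 5D (TraesCS5D03G0002100), both called lower. Of the SUT4 copies, TraesCS6B03G1265200 was lower at log2 -0.49 but lost its call when any library other than basal replicate 1 was left out, while TraesCS6A03G1026400 (6.65 against 7.17 FPKM) and TraesCS6D03G0903800 (3.12 against 3.64 FPKM) did not pass. SWEET proteins let sugars move down their gradient, and 27 of 45 SWEET models were lower, 13 of them among the 16 models described as SWEET6b-like. The SWEET6b-like model TraesCS2B03G0118800 had 0, 0 and 0.04 against 5.24, 3.1 and 4.36 FPKM. Basal libraries 1 and 2 were at 0 for this model, so no fold is given, and it met the filter through the central libraries alone. The SWEET6b-like models had a median log2 difference of -5.86 and central means of at most 4.96 FPKM. Many of them were thus kept through the central libraries, and the filter partly set the SWEET counts. The sugar transport protein 9-like model TraesCS2A03G1121100 was higher, at 2.1 ± 0.405 against 0.887 ± 0.155 FPKM (log2 1.2 ± 0.13, edgeR adjusted p = 1.5e-07).

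Starch genes were lower on both sides of the pathway and higher on neither: 23 of 52 synthesis models and 16 of 43 breakdown models were lower. The granule-bound starch synthase of the waxy locus on 7D (TraesCS7D03G0146000, chromosome 7D, 37359392 to 37363618, minus strand), which makes amylose, had 2.14, 3.74 and 4.22 against 12.1, 10.1 and 12.7 FPKM (log2 -1.83 ± 0.17, edgeR adjusted p = 1.1e-08). Without basal replicate 2 or central replicate 1, 15 and 14 synthesis models were lower. The 4A relative (TraesCS4A03G1032000) was at 1.34 ± 0.365 against 3.25 ± 0.157 FPKM (log2 -1.33 ± 0.27, edgeR adjusted p = 5.1e-04). The second isoform differed less, at log2 -0.28 on 2D (TraesCS2D03G0846900) and -0.34 on 2A (TraesCS2A03G0908100), both lower, and at 19 against 20.6 FPKM on 2B (TraesCS2B03G0997500), which did not pass. The call on 2D was lost without any 1 of the 6 libraries and that on 2A without any but basal replicate 1. For breakdown, chloroplastic alpha-amylase 3 on 3B (TraesCS3B03G0716600) was at 3.08 ± 0.542 against 4.55 ± 0.353 FPKM (log2 -0.62 ± 0.10, edgeR adjusted p = 2.8e-05). Genes of trehalose 6-phosphate, a sugar signal, were split evenly, with 9 higher and 9 lower of 33, and one side was the larger under 8 of 15 alternatives. Trehalose-phosphate phosphatase 2 on 1A (TraesCS1A03G0555300) was at 2.37 ± 0.285 against 5.03 ± 0.347 FPKM (log2 -1.13 ± 0.17, edgeR adjusted p = 1.5e-05). A trehalose-phosphate synthase on 5A (TraesCS5A03G0527400) was at 11.2 ± 0.782 against 5.93 ± 0.12 FPKM (log2 0.87 ± 0.07, edgeR adjusted p = 7.4e-10).

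Abscisic acid (ABA) is made from carotenoids, with 9-cis-epoxycarotenoid dioxygenase (NCED) as the controlling step, and is inactivated by 8'-hydroxylases. All 6 expressed NCED models were higher in basal spikelets, with means of 1.22 to 4.25 FPKM against 0.4 to 1.53 FPKM. TraesCS5B03G0943700 (chromosome 5B, 557004391 to 557006844, plus strand) had 3.17, 4.81 and 4.77 against 1.55, 1.48 and 1.56 FPKM (log2 1.43 ± 0.19, edgeR adjusted p = 3.4e-06). The others were TraesCS5A03G0075200LC (log2 1.55), TraesCS5B03G0068800 (1.45), TraesCS5D03G0099600 (1.26), TraesCS5D03G0859900 (1.2) and TraesCS5A03G0898000 (0.79). The last lost its call without basal replicate 2 (log2 0.53) or central replicate 1 or 2, and TraesCS5A03G0075200LC without basal replicate 2 or 3 or central replicate 1 or 3, so 4 of the 6 were called whichever library was left out. For TraesCS5D03G0099600, TraesCS5B03G0068800 and TraesCS5A03G0075200LC every central library was below the 1 FPKM of the filter. These models were kept through the basal libraries alone, so the filter partly set the count of 6 higher NCED models. The ABA synthesis list, which spells the enzyme with a hyphen and so misses 1 of them, had 5 of 13 higher and none lower, and its median was -0.13 as 7 of its members lay below 0. Without basal replicate 2 or central replicate 1 the list had 3 higher. Of the 3 ABA 8'-hydroxylase models, TraesCS6B03G0858400 was lower at 5.76, 6.07 and 5.23 against 9.73, 9.4 and 8.27 FPKM (log2 -0.73 ± 0.13, edgeR adjusted p = 1.4e-04) and TraesCS6A03G0725000 at 8.18 ± 0.583 against 12 ± 1.83 FPKM (log2 -0.60 ± 0.14, edgeR adjusted p = 0.002). The third, TraesCS6D03G0607800, was at 5.95 ± 0.159 against 6.91 ± 0.595 FPKM (log2 -0.27 ± 0.13, edgeR adjusted p = 0.11) and did not pass.

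ABA signalling genes were mixed, with 17 higher and 14 lower of 64, or 11 higher without basal replicate 3 or central replicate 1. The ABI5-like protein 3 models, bZIP factors of the ABA response, were all higher. TraesCS2A03G0203300 (chromosome 2A, 57097202 to 57099400, minus strand) had 4.74, 5.73 and 5.66 against 0.94, 0.73 and 1.31 FPKM (log2 2.38 ± 0.26, edgeR adjusted p = 1.3e-07). Its 2D counterpart (TraesCS2D03G0208400) was at 4.57 ± 1.0 against 1.02 ± 0.229 FPKM (log2 2.11 ± 0.30, edgeR adjusted p = 6.2e-06). The 2B one (TraesCS2B03G0279100) was at 3.05 ± 0.47 against 0.673 ± 0.274 FPKM (log2 2.12 ± 0.28, edgeR adjusted p = 2.4e-06). Protein phosphatase 2C 30 (TraesCS4A03G0193400), of the enzyme class that holds back ABA signalling, was at 6.91 ± 0.934 against 1.3 ± 0.139 FPKM (log2 2.36 ± 0.23, edgeR adjusted p = 1.9e-08). The kinase SAPK7 (TraesCS2D03G0698800) was lower at 11.3 ± 0.283 against 14.9 ± 0.529 FPKM (log2 -0.44 ± 0.06, edgeR adjusted p = 5.8e-06). Protective LEA and dehydrin proteins, typical ABA and drought responses, were lower in 18 of 42 cases and higher in 5. Dehydrin COR410 on 6D (TraesCS6D03G0573700) had 86.1, 95 and 97.6 against 176, 174 and 149.8 FPKM (log2 -0.89 ± 0.11, edgeR adjusted p = 9.6e-07) and WCOR410c on 6B (TraesCS6B03G0794800) had 42.5, 45.8 and 40.5 against 91.3, 91 and 94.5 FPKM (log2 -1.15 ± 0.13, edgeR adjusted p = 2.4e-07). A group 3 LEA gene on 4B (TraesCS4B03G0861800) was at 0.22 ± 0.176 against 3.58 ± 0.836 FPKM (log2 -3.99 ± 0.39, edgeR adjusted p = 1.5e-08). Dehydrin DHN3 on 6A (TraesCS6A03G0901400) was at 2.37 ± 0.0252 against 1.05 ± 0.0115 FPKM (log2 1.11 ± 0.27, edgeR adjusted p = 0.0025). So NCED and ABI5-like models were higher while most called LEA and dehydrin models were lower.

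Jasmonate is made from plastid fatty acids by lipoxygenase, allene oxide synthase and later enzymes. The steps differed in direction. Lipoxygenases were lower in 10 of 26 cases and higher in none. Allene oxide synthases were higher in 6 of 8 and lower in none, with 3 higher without basal replicate 2. Allene oxide synthase 4-like on 6D (TraesCS6D03G0385700) had 4.49, 6.05 and 7.23 against 2.17, 2.49 and 2.07 FPKM (log2 1.35 ± 0.17, edgeR adjusted p = 9.5e-07). Lipoxygenase 2.1 on 5B (TraesCS5B03G0014800) had 0.08, 0.14 and 0.11 against 1.27, 0.91 and 1.37 FPKM (log2 -3.48 ± 0.38, edgeR adjusted p = 7.4e-08). This lipoxygenase model met the filter through the central libraries alone, which partly set its direction. Over the whole synthesis list 7 of 48 were higher (3 without basal replicate 2) and 13 lower. The larger side changed without basal replicate 1, at 10 higher and 9 lower. In the response list 19 of 68 were higher (11 without central replicate 2) and 6 lower, at a median of 0.26. MYC2, the main transcription factor of jasmonate signalling, was higher in 6 of 7 models, with the 7B copy (TraesCS7B03G0254300) at 5.15, 6.88 and 5.47 against 2.01, 2.23 and 2.49 FPKM (log2 1.33 ± 0.15, edgeR adjusted p = 2.2e-07). Of the TIFY genes, which encode its repressors, 5 of 38 were higher and 1 was lower, so most did not pass; leaving out 1 library put the number higher between 2 and 9. A 60 kDa jasmonate-induced protein-like model (TraesCS2D03G1061500) was lower, at 5.38 ± 2.02 against 14.6 ± 2.24 FPKM (log2 -1.49 ± 0.23, edgeR adjusted p = 5.1e-05).

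Among the other hormones, all 3 models of LOGL10, an enzyme that releases active cytokinin, were higher. TraesCS1B03G0512300 (chromosome 1B, 315481724 to 315485161, plus strand) had 18.2, 22.8 and 24.1 against 5.55, 4.25 and 5.02 FPKM (log2 2.09 ± 0.15, edgeR adjusted p = 1.0e-10), and TraesCS1A03G0419300 was at 41.8 ± 3.65 against 15.7 ± 2.75 FPKM (log2 1.37 ± 0.20, edgeR adjusted p = 7.7e-06). The third, on 1D, joins 2 gene models (TraesCS1D03G0401000LC;TraesCS1D03G0401300) and was at 19.6 ± 3.5 against 4.56 ± 0.14 FPKM (log2 2.06 ± 0.28, edgeR adjusted p = 3.6e-06). The cytokinin list as a whole had 9 of 49 higher and 5 lower, the latter including the response regulator ORR26-like (TraesCS3A03G0920800, log2 -0.71). Gibberellin 2-oxidases, which inactivate gibberellin, were higher in 3 of 3 models, as in TraesCS6B03G0761500 at 5.01 ± 0.393 against 1.39 ± 0.275 FPKM (log2 1.79 ± 0.30, edgeR adjusted p = 5.7e-05). The gibberellin and brassinosteroid list was split, with 11 higher and 10 lower of 45. Of its leading members, gibberellin-regulated protein 9-like (TraesCS7D03G1290900) was at 14.2 ± 2.56 against 6.44 ± 0.691 FPKM (log2 1.09 ± 0.15, edgeR adjusted p = 5.0e-06). BRI1 kinase inhibitor 1 (TraesCS5A03G0604200) was at 1.38 ± 0.115 against 2.87 ± 0.267 FPKM (log2 -1.1 ± 0.19, edgeR adjusted p = 9.0e-05).

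Histone genes showed the strongest lean toward basal spikelets of any list with at least 10 tested models. Of 223 core histone models 176 were higher and 3 lower, with a median of 0.81. All 4 classes took part, with 58 of 73 H2A models, 48 of 55 H2B models, 55 of 79 H3 models and 15 of 16 H4 models higher. Without basal replicate 2, 107 of the list, 31 H2A and 24 H2B models were higher. H2B fell to 26 and 30 without central replicates 1 and 2. The most changed by the naming rule was H2B.9 (TraesCS5B03G0161100LC), at 45.7, 35.2 and 61.8 against 3.48, 1.64 and 10.6 FPKM (log2 3.12 ± 1.16, edgeR adjusted p = 0.04). With fewer libraries its adjusted p rose past 0.05 in 5 of the 6 cases, the exception being central replicate 3. A histone H4 model on 2B (TraesCS2B03G1110300) had 1.78 ± 0.225 against 0.37 ± 0.147 FPKM (log2 2.19 ± 0.31, edgeR adjusted p = 3.1e-06). A histone H3.3-like model on 6B (TraesCS6B03G0124500) was at 0.03 against 2.33 FPKM. Histone transcripts peak during DNA replication. Of the MCM2 to MCM7 genes, which encode the replicative helicase, none of 15 models passed, and their log2 differences lay between -0.22 and 0.23. The share of replicating cells in each position was not tested.

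Other cell division genes lay between the histone and MCM genes. In the list 68 of 278 were higher and 33 lower. These counts were 43 and 14 without basal replicate 2, 41 and 21 without basal replicate 3, and 43 and 37 were higher without central replicates 1 and 2. CDC20, which activates the anaphase-promoting complex, was higher in 9 of 11 models (4, 5 and 4 without basal replicate 3 and central replicates 1 and 2), with TraesCS5D03G0640800 at 9.52 ± 0.646 against 4.83 ± 0.4 FPKM (log2 0.93 ± 0.11, edgeR adjusted p = 2.7e-07). Cyclins, which drive the steps of the cell cycle, were higher in 76 of 171 models and lower in 6, or in 50 and 2 without basal replicate 2. Kinesin motors were lower in 31 of 148 models and higher in 11, or 14 lower without basal replicate 2 and 19 lower with 5 higher without basal replicate 3, and with 7 and 4 higher without central replicates 1 and 2. Over all models 15.1% were higher and 16.8% lower. The share of kinesins called lower was not far above that, and their median log2 difference was 0.04. KIN-7J on 5D (TraesCS5D03G0729400) was at 2.24 ± 0.302 against 6.97 ± 0.618 FPKM (log2 -1.69 ± 0.15, edgeR adjusted p = 2.4e-09). Cytosolic ribosomal protein genes were higher in 178 of 426 cases and lower in 10, by a small median of 0.22; 106 were higher without basal replicate 2 and 116 without basal replicate 3. 60S ribosomal protein L39 on 7B (TraesCS7B03G0130400LC) was at 102 ± 7.51 against 58.1 ± 0.815 FPKM (log2 0.76 ± 0.07, edgeR adjusted p = 7.1e-09). A 40S ribosomal protein S26-like model on 3D (TraesCS3D03G0758200) was at 0.03 against 1.15 FPKM.

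Photosynthesis genes, which green glumes and lemmas express, were lower in 77 of 158 cases and higher in 2, at a median of -0.55. Chlorophyll a-b binding proteins of the light-harvesting antenna accounted for 35 of these lower models. An LHCII model on 1D (TraesCS1D03G0873500) had 0.44 ± 0.201 against 3.07 ± 0.344 FPKM (log2 -2.85 ± 0.30, edgeR adjusted p = 2.6e-08). A higher model on 7B (TraesCS7B03G0466400LC) was at 6.85 ± 2.05 against 3.91 ± 0.72 FPKM (log2 0.76 ± 0.22, edgeR adjusted p = 0.011), which was not called without basal replicate 2 or central replicate 3. The summed FPKM of the list was 6218, 8214 and 7505 in basal and 11689, 12523 and 10503 in central libraries.

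Stress-related lists were mixed. Class III peroxidases, which act in the cell wall, were lower in 37 of 105 cases and higher in 19, or 12 without basal replicate 2 and 10 without central replicate 3. Models with the same description moved apart. The peroxidase 1-like model on 4A (TraesCS4A03G0971500) was at 17.3, 25 and 18.4 against 4.25, 3.41 and 3.4 FPKM (log2 2.4 ± 0.20, edgeR adjusted p = 1.4e-09). The one on 1B (TraesCS1B03G0906800) was at 0.32, 0.81 and 0.41 against 3.37, 4.63 and 3.27 FPKM (log2 -2.91 ± 0.28, edgeR adjusted p = 1.3e-08). Among the subtilisins and serine protease inhibitors 23 of 84 were higher (13 without basal replicate 2) and 8 lower, led by a Bowman-Birk trypsin inhibitor on 3D (TraesCS3D03G0061500, chromosome 3D, 12415658 to 12416526, plus strand) at 15, 21.5 and 24.6 against 2.94, 2.45 and 2.36 FPKM (log2 2.92 ± 0.26, edgeR adjusted p = 2.6e-09). Heat shock genes were lower in 37 of 131 cases and higher in 21 (11 and 12 without basal replicates 2 and 3, 12 and 13 without central replicates 1 and 2). The lower ones included all 6 models of the endoplasmic reticulum chaperone BIP5-like, such as TraesCS7D03G1000200 at 0.12 against 2.75 FPKM, and the higher ones included heat stress factor B-2c-like (TraesCS5B03G0798100) at 2.2 ± 0.3 against 1.2 ± 0.0603 FPKM (log2 0.82 ± 0.16, edgeR adjusted p = 3.4e-04). The BIP5-like models had basal means of at most 0.18 FPKM and met the filter through the central libraries alone, which largely set their direction. Ribonuclease 1-like (TraesCS2A03G0323300) was among the largest increases, at 5.7 ± 1.48 against 0.9 ± 0.151 FPKM (log2 2.61 ± 0.28, edgeR adjusted p = 6.8e-08).

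Day 12 was then set against the other 5 days, by testing whether the basal minus central difference at day 12 departed from the mean of the differences at days 6, 9, 15, 21 and 27. This difference of differences was called for 8427 of 57228 models (14.7%), of which 3995 (6.98%) lay above and 4432 (7.74%) below the mean of the other days. Leaving out 1 library at a time gave 4222 calls without basal replicate 2, 5530 without basal replicate 3, 5221 and 5315 without central replicates 1 and 2, 6499 without central replicate 3 and 11375 without basal replicate 1. This count depends on single libraries. Where groups at other days are at or near 0 the estimate is poor, so models with a group at 0 are left out of the departures given for single models. The counts of models and of list members that follow still include them. Of the 57228 models, 1168 had at least 1 of the 12 groups at 0. Day 12 called 31.9% of these models; the same models gave 19.8% at day 6, 40.4% at day 9, 22.3% at day 15, 17.7% at day 21 and 20.3% at day 27. Higher models made up 8.05%, 19.5%, 9.05%, 9.84% and 10.9% at days 6, 9, 15, 21 and 27, and lower models 11.7%, 20.9%, 13.2%, 7.86% and 9.37%. Of the day 12 calls, 8273 were called in the same direction at day 9 and 1546 in the opposite one, while at day 21 the numbers were 1440 and 2776. The shared calls at day 9 are 45.3% of the day 12 and 35.8% of the day 9 calls, and those at day 21 are 7.9% and 14.2%. Across all 6 days 39 models were called higher and 29 lower in basal spikelets each time, and 2392 higher and 1624 lower models were called at day 12 alone. Of those called at day 12 alone, 1667 also had a called departure from the mean of the other days. For the rest, the missing calls may be thresholds narrowly missed on other days, and the models were chosen on day 12 levels.

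**Figure D5:**
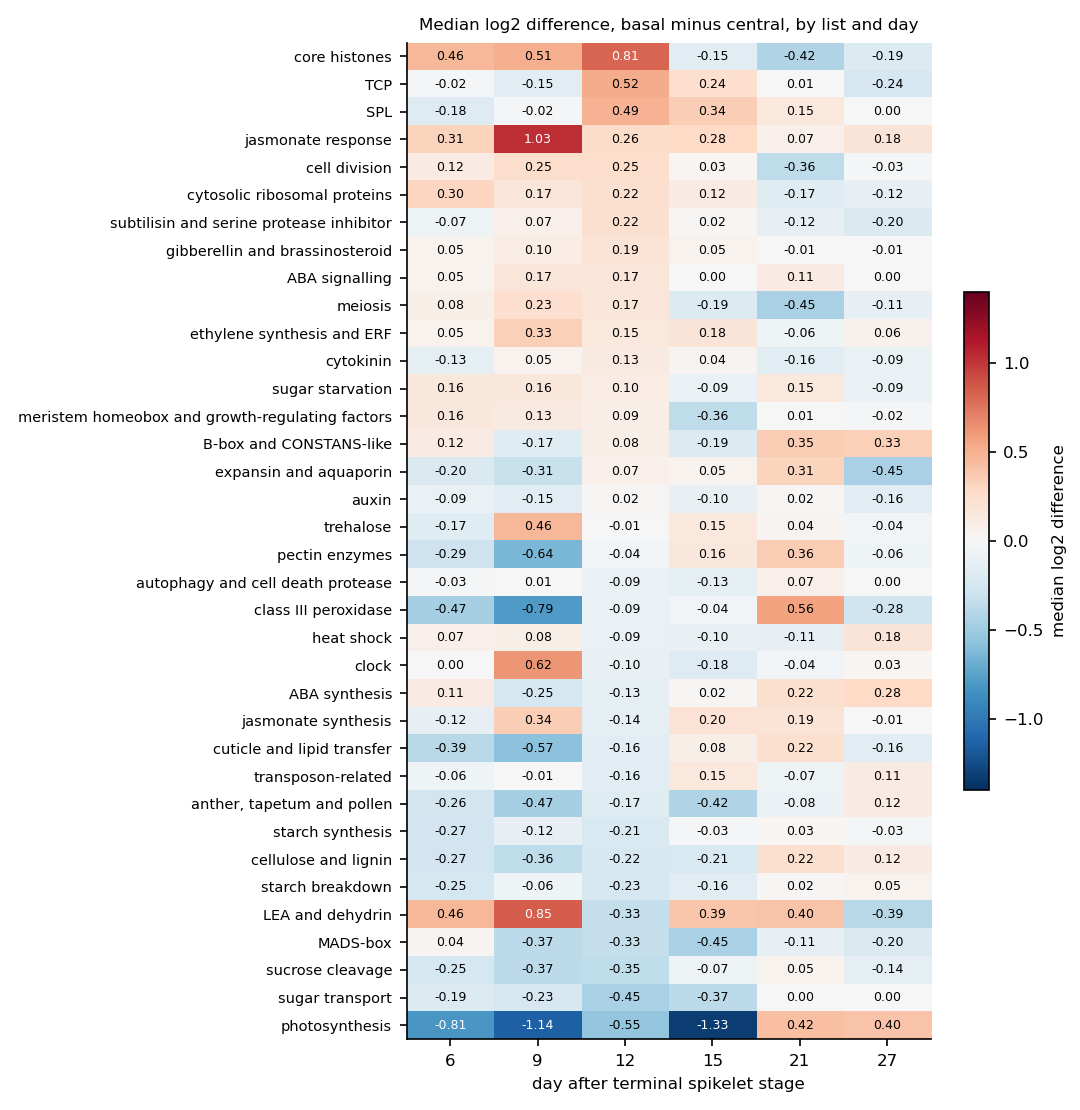
Median log2 difference, basal minus central, of each gene list with at least 10 tested models (rows) at each sampling day (columns), ordered by the day 12 value, with red for higher and blue for lower in basal spikelets. Core histones have the highest median at day 12 (0.81) and photosynthesis the lowest (-0.55), and the LEA and dehydrin median is below 0 at days 12 and 27 but above 0 at the other 4 days.

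Histone, SPL and TCP genes stood above the mean of their other days more often than below it. The difference of differences was positive and called for 112 of 223 histone models, 17 of 31 TCP models and 9 of 38 SPL models, and negative for 2, 0 and 1 of them. Without basal replicate 2 the positive counts were 18, 10 and 4. For histones the other omissions gave 52 without basal replicate 3 and 39, 40 and 74 without central replicates 1, 2 and 3, and SPL fell to 5 without central replicate 3. TCP21-like (TraesCS6B03G1277800) departed by 0.83 ± 0.11, edgeR adjusted p = 1.4e-05, and SPL10 on 7B (TraesCS7B03G1082000), at 5.04 ± 0.97 against 2.16 ± 0.327 FPKM at day 12, by 1.79 ± 0.41, edgeR adjusted p = 0.004. The naming rule also picked a ubiquitin-like model (TraesCS5A03G0496000, 2.36 ± 0.47, edgeR adjusted p = 0.001), a lin-54 homolog (TraesCS1B03G1239500, 2.34 ± 0.46, edgeR adjusted p = 0.0012) and aspartyl protease 25 (TraesCS4A03G0003300, 1.65 ± 0.25, edgeR adjusted p = 6.6e-05). LEA and dehydrin genes stood below, with 20 of 42 called and none above. Their median was 0.46, 0.85, 0.39, 0.40 and -0.39 at days 6, 9, 15, 21 and 27, against -0.33 at day 12, and COR410 (TraesCS6D03G0573700) departed by -1.17 ± 0.12, edgeR adjusted p = 5.2e-07. Jasmonate response genes were below the mean of their other days in 12 cases and above in 3, or 7 without basal replicate 1.

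Protodermal factor 1-like on 3D (TraesCS3D03G0232900) departed by -3.82 ± 0.20, edgeR adjusted p = 3.9e-12; DIR1 (TraesCS1A03G0439600) did so by -4.69 ± 1.30, edgeR adjusted p = 0.014, and HOTHEAD-like on 2D (TraesCS2D03G0901700) by -4.74 ± 0.52, edgeR adjusted p = 3.8e-07. The protodermal factor 1-like model averaged 0.56, 3.18 and 52.5 FPKM in basal and 6.78, 64.5 and 131 in central spikelets at days 9, 12 and 15. Sucrose synthase 1 on 7D (TraesCS7D03G0082900) averaged 3.67, 16.7 and 80 FPKM in basal and 15.1, 67.2 and 159 in central spikelets on these days and departed by -1.54 ± 0.15, edgeR adjusted p = 2.0e-07. CesA4 on 3D (TraesCS3D03G0666000) departed by -2.67 ± 0.19, edgeR adjusted p = 2.0e-09. HOX12 on 4D (TraesCS4D03G0623900) departed by the smaller 0.72 ± 0.23, edgeR adjusted p = 0.035, with log2 differences of 3.52 and 4.99 at days 6 and 9, so that HOX12 was far higher in basal spikelets on those days too. These departures rest on which days are averaged. Against days 9 and 15 alone that of HOX12 on 4D was -0.26 (edgeR adjusted p = 0.52) and that of protodermal factor 1-like on 3D was -1.88 (edgeR adjusted p = 1.3e-06). On the same terms that of sucrose synthase 1 on 7D was -0.47 (edgeR adjusted p = 0.053) and that of CesA4 on 3D was -0.80 (edgeR adjusted p = 0.013). The CesA7 models changed sign on these terms, at 0.19 on 1B and 0.55 on 1D and 1A. CYP704B1 on 4B departed by -1.58 ± 0.23, edgeR adjusted p = 5.7e-05 from the mean of all 5 other days but by 0.10 (edgeR adjusted p = 0.84) from days 9 and 15. DRM1 on 4D (TraesCS4D03G0130800) did not pass for a departure, at 0.41 ± 0.17, edgeR adjusted p = 0.11. MADS1-like on 4D (TraesCS4D03G0590000) did not pass either, at -0.12 ± 0.17, edgeR adjusted p = 0.69.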

How the data were processed

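Total RNA was extracted with Trizol from samples with an RNA integrity number above 7, and Illumina libraries were sequenced, per the labels' protocols. The deposited table holds, for each of 34 libraries, whole-number estimated counts and FPKM values per gene model, per the file headers; how the authors normalized the FPKM values, and the aligner, counter and genome build behind them, are not given in the sources used here. The submitters' processing notes name Bowtie 0.12.2 and the mouse builds mm8 and mm9, which cannot be the genome of these values. Coordinates are those of the deposited table; 93.9% of 45991 high-confidence models overlap protein-coding genes of the RefSeq annotation of IWGSC CS RefSeq v2.1, a share that a 5 Mb displacement lowers to 6.6%. Between 29.8% and 30.5% of counts below 400 were multiples of 4, where 25% would be even, so counts may have been scaled before deposit.

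Counts of the 57228 models were fitted with edgeR 4.0.16 (R 4.3.3; TMM, quasi-likelihood F test) as 12 group means over all 34 libraries, and day 12 was tested as basal minus central and as that difference minus the mean of the other 5 days, with Benjamini-Hochberg adjustment over all models at 0.05. SE is the log2 difference divided by the square root of F. Of the models, 10719 are low-confidence, 889 join several genes and 5168 have no description. The 39 lists, the families and the members were chosen from gene descriptions with earlier results of these data known; families not fixed by rule were picked after their values were seen. The text names, per direction, the 15 largest called differences with a description, at least 5 FPKM in the higher group and no overlap, leaving out joined models; the best called member of each list; fixed families; homoeologous copies; and the 5 largest departures from the other days with no group at 0 counts. Other genes were chosen after their values were seen. Alternatives used limma 3.58.1 on log2(FPKM + 0.1) and log2(FPKM + 1), DESeq2 1.42.0, other filters, fewer libraries and each day 12 library left out. Promoter sequences were not used here.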

Additional observations from a re-analysis of the deposited data

Results flagged for a closer look

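For the models listed here the basal minus central difference at day 12 departed from the mean of the differences on the other 5 days, by edgeR's test of the difference of differences with Benjamini-Hochberg adjustment at 0.05. Values in brackets are log2 departures, negative where basal spikelets were lower relative to central ones at day 12 than in the mean of the other 5 days. A departure from that mean does not say that the day 12 difference was beyond that of each other day: set against days 9 and 15 alone, 20 of the 82 change sign, and the cause of the departures was not tested.

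Among surface and cell wall genes the departures toward lower basal levels were those of HOTHEAD-like TraesCS2D03G0901700 (-4.74), DIR1 TraesCS1A03G0439600 (-4.69), protodermal factor 1-like TraesCS3D03G0232900 (-3.82) and protodermal factor 1-like TraesCS3A03G0240500 (-3.55). They also included GDSL EXL1-like TraesCS7B03G0691400 (-2.79), laccase-13-like TraesCS1D03G0679300 (-3.43), CesA4 TraesCS3D03G0666000 (-2.67) and CesA7 TraesCS1B03G0493300 (-2.6). Next came CesA7 TraesCS1D03G0371000 (-2.36), CesA7 TraesCS1A03G0402200 (-2.21), phenylalanine ammonia-lyase TraesCS6A03G0614100 (-1.27), pectin acetylesterase 5-like TraesCS3A03G1264200 (-1.85) and peroxidase 1-like TraesCS1B03G0906800 (-1.71). Against days 9 and 15 alone all 3 CesA7 models change sign, at 0.19 on 1B and 0.55 on 1D and 1A. GDSL EXL1-like (0.44), phenylalanine ammonia-lyase (0.21) and peroxidase 1-like (0.23) then change sign as well.

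In the pollen wall pathway they were those of CYP704B1 TraesCS4A03G0032700 (-2.36), CYP704B1 TraesCS4D03G0673200 (-1.61), CYP704B1 TraesCS4B03G0752700 (-1.58) and fatty acyl-CoA reductase 2-like TraesCS4D03G0668100 (-2.3). They also included fatty acyl-CoA reductase 2-like TraesCS4A03G0036600 (-2.14) and RAFTIN TraesCS7B03G0368300 (-1.24). Against days 9 and 15 alone 5 of these 6 change sign, at 0.10 to 1.19, and CYP704B1 TraesCS4A03G0032700 is then called the opposite way (1.19, edgeR adjusted p = 0.03).

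Sugar and starch genes below the mean of their other days were sucrose synthase 1 TraesCS7A03G0091500 (-2.51), sucrose synthase 1 TraesCS7D03G0082900 (-1.54), sucrose synthase 1 TraesCS7A03G0375000 (-0.85) and sucrose synthase 1 TraesCS7D03G0358200 (-0.80). They also included sucrose synthase 1 TraesCS4A03G1116300 (-0.73), sucrose synthase 1 TraesCS7B03G0171900 (-0.62), trehalose-phosphate phosphatase 2 TraesCS1A03G0555300 (-0.70), granule-bound starch synthase TraesCS7D03G0146000 (-0.67) and alpha-amylase 3 TraesCS3B03G0716600 (-0.42).

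Protective proteins and regulators that were relatively lower were group 3 LEA TraesCS4B03G0861800 (-3.86), WCOR410c TraesCS6B03G0794800 (-1.17), COR410 TraesCS6D03G0573700 (-1.17) and knotted-1-like 3 TraesCS4D03G0792700 (-1.87). They also included BEL1-like 7 TraesCS4A03G0739000 (-0.85), PRR95 TraesCS5A03G0778000 (-0.52) and GIGANTEA TraesCS3D03G0245500 (-0.50).

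Other models that were relatively lower were histone H3.3-like TraesCS6B03G0124500 (-6.13), cytochrome P450 71C2 TraesCS2B03G0121700 (-4.35), Pi21-like TraesCS2D03G0666600LC (-3.69) and epoxide hydrolase 2-like TraesCS1A03G0460700 (-3.2). They also included SBT2.5 TraesCS2A03G0941400 (-3.15), TIP1-2 TraesCS3B03G1515200 (-2.75), ILR1-like 8 TraesCS2A03G0148500 (-2.44) and LHCII protein TraesCS1D03G0873500 (-1.5). Next came KIN-7J TraesCS5D03G0729400 (-1.18), retrotransposon protein TraesCS5B03G0372100LC (-0.83) and vacuolar-processing enzyme TraesCS3A03G0530600 (-0.60).

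Transcription factors above the mean of their other days were HOX12 TraesCS4A03G0078800 (0.71), HOX12-like TraesCS4D03G0623900 (0.72), NAC TraesCS5B03G0394500 (1.08) and NAC29-like TraesCS5D03G0370800 (0.84). They also included bHLH51 TraesCS3D03G0216800 (1.44), TCP21-like TraesCS6B03G1277800 (0.83), TCP7-like TraesCS6D03G0533600 (0.96) and SPL10 TraesCS7B03G1082000 (1.79). Next came MYC2 TraesCS7B03G0254300 (0.76), CONSTANS-LIKE 3-like TraesCS6A03G0600300 (0.68), ELF4-like 4 TraesCS4D03G0314600LC (1.47) and lin-54 homolog TraesCS1B03G1239500 (2.34). The differences of HOX12 were larger at day 9 than at day 12, at log2 5.13 against 3.37 on 4A and 4.99 against 3.61 on 4D.

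Hormone genes above the mean of their other days were ABI5-like 3 TraesCS2A03G0203300 (1.31), ABI5-like 3 TraesCS2D03G0208400 (1.34), ABI5-like 3 TraesCS2B03G0279100 (1.15) and allene oxide synthase 4-like TraesCS6D03G0385700 (0.61). They also included LOGL10 TraesCS1B03G0512300 (0.67), gibberellin-regulated protein 9-like TraesCS7D03G1290900 (1.25) and SAUR32-like TraesCS1A03G0483200 (0.98).

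Further models that were relatively higher were histone H4 TraesCS2B03G1110300 (2.57), CDC20 TraesCS5D03G0640800 (0.62), PAIR1-like TraesCS2A03G0780300 (1.41) and POLLENLESS 3-LIKE 2 TraesCS5A03G0798600 (1.21). They also included ribosomal protein L39 TraesCS7B03G0130400LC (0.57), ubiquitin-like TraesCS5A03G0496000 (2.36), aspartyl protease 25 TraesCS4A03G0003300 (1.65) and Bowman-Birk inhibitor TraesCS3D03G0061500 (0.86). Next came peroxidase 1-like TraesCS4A03G0971500 (1.29), invertase F TraesCS6B03G0274800 (1.29), sugar transport protein 9-like TraesCS2A03G1121100 (1.07) and cellulose synthase-like E6 TraesCS5D03G0600000 (1.04). Others were lipid-transfer protein TraesCS3B03G0945600 (1.26), TIP1-1 TraesCS4B03G0809400 (0.78), chlorophyll a-b binding protein 3C TraesCS7B03G0466400LC (1.11) and retrotransposon protein TraesCS5A03G1262200LC (1.02).

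The mitochondrial ribosomal protein S12 model TraesCS1D03G0345300 departed by 3.37 and was at 13 FPKM in basal replicate 2 against 1.75 and 2.95 in the other basal libraries.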

How the results depend on the processing

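Under the 15 alternatives the number of day 12 calls ranged from 12322 to 20198, against 18245, and leaving out 1 library gave 12322 to 19482 calls, 5129 to 9027 of them higher and 7193 to 10455 lower. With the stricter filter (mean of at least 3 FPKM and 1 FPKM in at least 3 libraries), 5563 of 35113 models were higher and 88 of 94 genes named by rule were called, against 135 of the full set; fewer models and genes were tested there. Leaving out 1 library gave 4222 to 11375 calls for the departure from the other days (8427 with all), 1431 to 5258 of them above and 2791 to 6117 below, 124 to 134 genes named by rule called, and 14 to 18 lists with more higher than lower calls (17 with all). On limma scales the departures above were 6360 with log2(FPKM + 0.1) and 7639 with log2(FPKM + 1), against 3995, and with the stricter filter 2647; the cause was not tested. Higher calls made up 42.1% of calls in DESeq2, 42.3% with DESeq2's size factors in edgeR and 55.7% and 57.4% on the limma scales, against 47.3%. Same-numbered basal and central libraries did not deviate together (correlations of -0.062, 0.001 and -0.021), nor did differently numbered ones (-0.036 to 0.053). With 3 libraries per group this cannot tell whether libraries of the same number share plants or spikes, so pairing remains unknown. A replicate block on the day 12 libraries gave 13324 calls, 6423 higher and 6901 lower, against 15521 without it. A block within day gave 6245 departures. Among single genes, 3 differences that passed in no setting changed sign. TraesCS2D03G0433700 ranged from -0.07 to 0.23 when 1 library was left out, with -0.06 without basal replicate 2 and -0.03 without central replicate 3. LHY on 7D (TraesCS7D03G0704300) was 0.02 on both limma scales and ranged from -0.08 to 0.02 with 1 library left out, with 0.01 without basal replicate 3. Asparagine synthetase 1 on 4B (TraesCS4B03G0544200) ranged from -0.26 to 0.15 with 1 library left out, with 0.14 without basal replicate 1. Of the 181 models named in the text, DESeq2 did not call 4 that edgeR called at day 12 (TraesCS1B03G1239500, TraesCS3D03G0758200, TraesCS5A03G0496000 and TraesCS7B03G1082000), and 11 lost their call without basal replicate 2. Set against days 9 and 15 alone, 35 of 82 departures kept their call and sign, 27 kept the sign only and 20 changed sign: TraesCS1A03G0402200 (0.55), TraesCS1B03G0493300 (0.19), TraesCS1B03G0512300 (-0.10), TraesCS1B03G0906800 (0.23), TraesCS1D03G0371000 (0.55), TraesCS1D03G0873500 (0.00), TraesCS3D03G0061500 (-0.89), TraesCS4A03G0032700 (1.19), TraesCS4A03G0036600 (0.54), TraesCS4A03G1116300 (0.24), TraesCS4B03G0752700 (0.10), TraesCS4D03G0623900 (-0.26), TraesCS4D03G0673200 (0.54), TraesCS5B03G0394500 (-0.78), TraesCS5D03G0370800 (-0.60), TraesCS5D03G0600000 (-0.10), TraesCS6A03G0614100 (0.21), TraesCS6D03G0385700 (-0.27), TraesCS7B03G0368300 (0.71) and TraesCS7B03G0691400 (0.44). The cause was not tested. The 3 libraries per group limit the precision of every value, with at least 99070815 counts in each day 12 library.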

Other observations

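Gene groups outside the comparisons above are given here, whether or not they leaned to one side at day 12. In the auxin list the number higher was 23 and the number lower 38, of 196 models, at a median log2 difference of 0.02, and the higher count was 12 or 13 without basal replicate 2 or 3 or central replicate 2 or 3. SAUR32-like on 1A (TraesCS1A03G0483200), of a family of fast auxin responses, was at 5.37 ± 0.945 against 1.71 ± 0.08 FPKM (log2 1.6 ± 0.25, edgeR adjusted p = 2.6e-05). The auxin-releasing hydrolase ILR1-like 8 on 2A (TraesCS2A03G0148500) was at 0.393 ± 0.174 against 4.23 ± 0.669 FPKM (log2 -3.48 ± 0.29, edgeR adjusted p = 4.2e-10). For ethylene synthesis and response factors the number higher was 34 and the number lower 23, of 153, with 18 higher and 19 lower without basal replicate 2, which turns the larger side, and 15 lower without basal replicate 3. An ethylene-responsive factor on 7A (TraesCS7A03G0612200) was at 3.74 ± 0.365 against 1.12 ± 0.1 FPKM (log2 1.69 ± 0.18, edgeR adjusted p = 7.6e-08). An aminocyclopropane carboxylate oxidase model (TraesCS2A03G0051900LC), of the last step of ethylene synthesis, was listed at 0 in the basal libraries and at 2.84 FPKM on average in central ones.

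Water channels and expansins were split at 19 higher and 15 lower of 95, and the larger side changed under 7 of 15 alternatives. Without basal replicate 2 the higher count was 7, and it was 12, 11 and 11 without central replicates 1, 2 and 3. The vacuolar aquaporin TIP1-1 on 4B (TraesCS4B03G0809400) was at 93.5 ± 21.7 against 49.9 ± 3.63 FPKM (log2 0.86 ± 0.17, edgeR adjusted p = 3.4e-04). TIP1-2 on 3B (TraesCS3B03G1515200) was at 0.123 ± 0.0577 against 1.89 ± 0.286 FPKM (log2 -3.95 ± 0.38, edgeR adjusted p = 2.5e-09). The clock list, which its letters also matched to the auxin synthesis gene YUCCA11 (not called), had 1 higher and 4 lower models of 22; none of the 3 LHY copies passed, at 6.67 against 6.78 FPKM (TraesCS7A03G0737400), 8.42 against 8.82 FPKM (TraesCS7B03G0535400) and 4.88 against 4.82 FPKM (TraesCS7D03G0704300). GIGANTEA on 3D (TraesCS3D03G0245500) was slightly lower, at 10.8 ± 0.914 against 13 ± 0.161 FPKM (log2 -0.32 ± 0.10, edgeR adjusted p = 0.012), and not called without basal replicate 2 (edgeR adjusted p = 0.05). PRR-type regulator TraesCS5A03G0778000 was at 5.96 ± 0.516 against 8.07 ± 0.767 FPKM (log2 -0.49 ± 0.10, edgeR adjusted p = 6.7e-04). ELF4-like 4 on 4D (TraesCS4D03G0314600LC) was at 3.17 ± 0.536 against 0.68 ± 0.644 FPKM (log2 2.14 ± 0.41, edgeR adjusted p = 3.1e-04). In the B-box and CONSTANS-like list the number higher was 7 and the number lower 2, of 36, led by CONSTANS-LIKE 3-like (TraesCS6A03G0600300) at 12 ± 2.66 against 6.5 ± 0.342 FPKM (log2 0.85 ± 0.13, edgeR adjusted p = 3.0e-05). B-box 24-like (TraesCS2B03G0945400) was at 1.33 ± 0.17 against 2.76 ± 0.462 FPKM (log2 -1.1 ± 0.27, edgeR adjusted p = 0.0033). Of the autophagy and cell death protease models, the number lower was 23 and the number higher 7, of 85 (15 and 4 without basal replicate 2), with vacuolar-processing enzyme models at 4.41 ± 0.402 against 7.95 ± 0.64 FPKM on 3A (TraesCS3A03G0530600, log2 -0.90 ± 0.09, edgeR adjusted p = 1.3e-08) and at 4.48 ± 0.666 against 2.21 ± 0.442 FPKM on 6B (TraesCS6B03G0523700LC, log2 0.97 ± 0.22, edgeR adjusted p = 0.0016). Among transposon-related models the number lower was 23 and the number higher 10, of 120, but their lower count ranged from 7 without basal replicate 2 to 39 without basal replicate 1; retrotransposon models on 5A (TraesCS5A03G1262200LC) and 5B (TraesCS5B03G0372100LC) were at 21.6 ± 5.26 against 9.21 ± 1.95 FPKM and 2.0 ± 0.541 against 4.22 ± 0.223 FPKM. None of the 3 pistil and ovule models passed edgeR's test or had an unadjusted p under 0.05, DESeq2 called none, and their median was -0.27.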
